A study of Rattus norvegicus with 32 samples.

Results

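The comparison is between the drugs themselves. CA3 neurons of injured rats pretreated with metyrapone (TBI+MT) were set against those of injured rats pretreated with carbenoxolone (TBI+CB), both at 24 h, and the members are all samples so titled. They make 4 RNA pools, 2 per drug, on 8 arrays, out of 16 pools on 32 arrays in the whole study. Male adult Sprague-Dawley rats were given metyrapone at 100 mg/kg or carbenoxolone at 30 mg/kg under the skin before a moderate fluid percussion injury. The labels put the drug 90 min before injury, whereas the methods state a shorter interval, and the 24 h are counted from treatment in the labels. Each pool held RNA of 3 to 6 rats per the labels. The captured cells were CA3 pyramidal neurons that Fluoro-Jade, a stain for degenerating neurons, had left unstained, and their RNA went through 2 rounds of amplification. All rats compared here were injured and drugged, so the comparison holds no untreated or uninjured tissue, and both drugs were given before the injury, not after it.

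Metyrapone blocks the last step of glucocorticoid synthesis in the adrenal cortex. Carbenoxolone, a derivative of the licorice compound glycyrrhetinic acid, inhibits the 11βHSD enzymes and also blocks gap junction channels. Of these enzymes, the type encoded by Hsd11b1 regenerates active glucocorticoid inside cells. The paper names it as a target that metyrapone inhibits as well. Corticosterone, the glucocorticoid of the rat, acts in hippocampal neurons through the glucocorticoid receptor (Nr3c1) and the mineralocorticoid receptor (Nr3c2), which are transcription factors. The comparison asks whether neurons that survived injury differed in their transcripts according to which of the drugs the rat had received.

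No probe differed between TBI+MT and TBI+CB at an adjusted p under 0.05. Of 17609 probes tested, 0 were called (0.0%), and the smallest adjusted p was 0.764 (limma with Benjamini-Hochberg adjustment). At an unadjusted p under 0.05 there were 286 probes higher in TBI+MT (1.62%) and 607 higher in TBI+CB (3.45%). An exact permutation test on 2 pools against 2 cannot go below p = 0.333 for any single gene, so the limma fit, which borrowed its spread from all 16 pools, was the test used. The SE of a log2 difference had a median of 0.73, with quartiles of 0.57 and 0.95. By array weights the drug pools at 24 h were the noisiest of the 8 groups, so these SEs may be too small for them.

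The pools of a drug were far apart. A level is given throughout as normalized intensity, in multiples of the median of its array, and is the mean of duplicate arrays on the log2 scale. Above background were 28.79 and 26.08% of probes on the arrays of TBI+MT pool 1, and 29.97 and 30.25% on those of TBI+CB pool 2, hereafter the dim pools. The bright pools had 48.85 and 41.97% for TBI+MT pool 2, and 58.51 and 57.34% for TBI+CB pool 1. Duplicate arrays correlated at r = 0.90 and 0.92 over probes in the dim TBI+MT and TBI+CB pools, and at 0.96 and 0.97 in the bright ones. In TBI+MT pool 1, 19.5% of probes lay over 2-fold apart between duplicates, against 2.1% in TBI+CB pool 1. Across pools, r was 0.73 between the TBI+MT pools and 0.84 between the TBI+CB pools. Between drugs it was 0.89 for the bright pair and 0.79 for the dim pair. TBI+MT pool 2 was thus closer to both TBI+CB pools (0.89 and 0.86) than to TBI+MT pool 1. All 8 arrays belonged to one run of slide numbers.

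The drug difference can be read from separate pairs of pools that share no sample. Taking pools of like brightness, the difference in the bright pair (TBI+MT pool 2 minus TBI+CB pool 1) and that in the dim pair (TBI+MT pool 1 minus TBI+CB pool 2) correlated at r = 0.09 over 17571 probes and had the same sign for 57.6% of them. Taking pools of the same number, the correlation was -0.27 and 28.4% had the same sign. These are descriptions across probes, which are not independent replicates, and every pair carries the brightness of its pools. The median log2 difference over all probes was -0.29, with -0.36 in the bright pair and -0.14 in the dim pair. With 1 probe per gene it was -0.42, so gene lists are read against that shift.

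**Figure D1:**
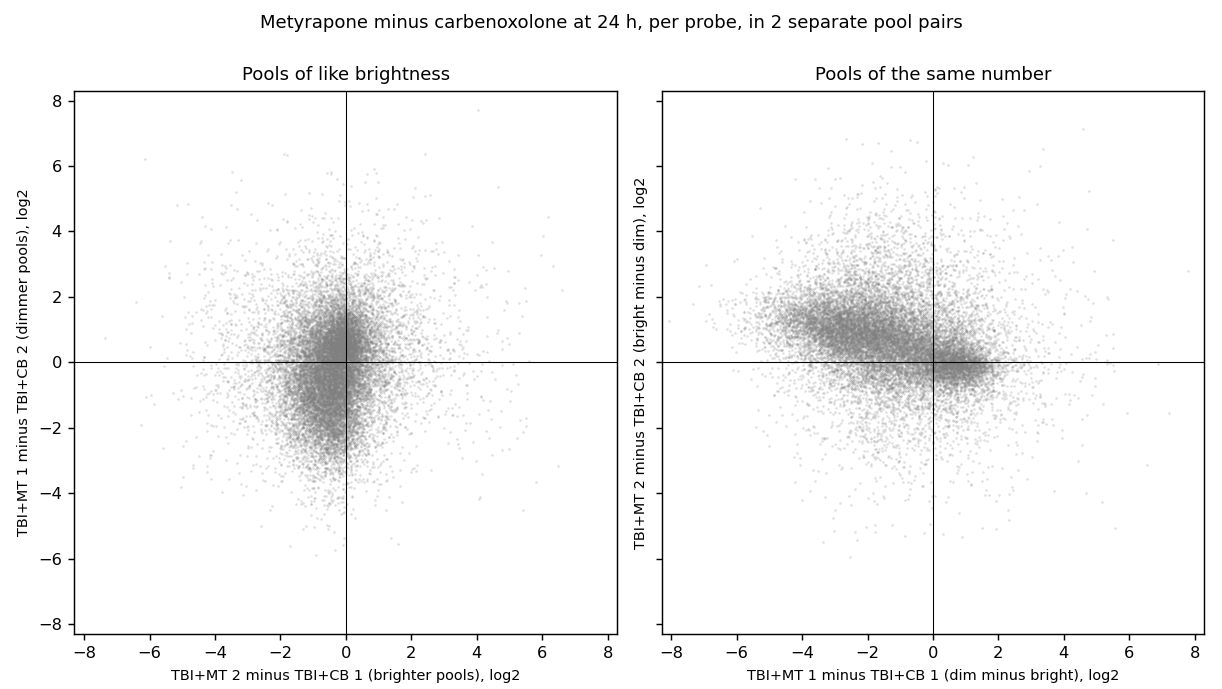
Log2 difference between TBI+MT and TBI+CB at 24 h for each probe, 1 point per probe, in 2 pairs of pools that share no sample; on the left the bright pair (horizontal axis) against the dim pair (vertical axis), on the right the pools numbered 1 against those numbered 2. The left cloud has almost no slope (r = 0.09), and the right cloud runs downwards (r = -0.27).

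Among 8245 genes with 1 probe each, both TBI+MT pools lay above both TBI+CB pools by over 2-fold on average in 196 (2.38%), and the reverse held in 518 (6.28%). The larger count on the carbenoxolone side depended on the filter for background, since with no filter 3043 probes were so separated towards TBI+MT and 1854 towards TBI+CB, and the median over all probes was 0.04. Of 6595 probes above background on all 8 arrays, 95 were separated in this way towards TBI+MT and 166 towards TBI+CB. By the replicate filter of the methods, which asks that the 4 arrays of each group lie within 2-fold and that a group be above background on all 4, 1424 probes qualified, of which 38 were over 2-fold higher in TBI+MT and 64 in TBI+CB.

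The 12 genes of smallest p with both TBI+MT pools on the higher side began with Wwox, Recql4, Tnfrsf9 and Acvr2b. Their adjusted p was 0.777 to 0.786, so none passed the test. Wwox, an oxidoreductase gene known as a tumor suppressor, stood at 27.1 and 47.6 in TBI+MT pools 1 and 2 and at 5.37 and 7.15 in TBI+CB pools 1 and 2 (log2 difference 2.53 ± 0.61 SE). Its duplicate arrays did not match, since the difference was 4.05 on arrays a and 1.02 on arrays b. Acvr2b, an activin receptor, was at 5.91 and 8.73 against 1.66 and 0.93 (2.54 ± 0.68), with 2.38 and 2.69 on arrays a and b. Bcl11b, a transcription factor of forebrain neurons, was at 5.3 and 6.72 against 1.22 and 0.91 (2.50 ± 0.76). In these last 2 genes the pools of each drug were close to each other, and the arrays of each group lay within 2-fold. Both were above background on only 2 TBI+CB arrays. In TBI+CB pool 2 the lowest signals above background were 1.96 and 1.94 on arrays a and b. Lower values there lie below detection, so the size of such differences is uncertain.

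Tnfrsf9, a costimulatory receptor of the TNF family, was at 7.74 and 2.85 in the TBI+MT pools and at 1.30 and 0.42 in the TBI+CB pools (log2 difference 2.67 ± 0.70). Recql4, a DNA helicase, was at 3.77 and 1.68 against 0.84 and 0.36 (2.19 ± 0.58). In both genes the dim TBI+MT pool was the highest of the 4 and the dim TBI+CB pool the lowest. Anpep, aminopeptidase N, was at 3.45 and 11.5 against 1.79 and 0.89 (2.33 ± 0.67). C8a, a chain of complement component 8, was at 4.32 and 4.47 against 1.79 and 0.89 (1.80 ± 0.51). Tnfrsf9, Recql4, Anpep and C8a were each above background on only 2 TBI+CB arrays. In TBI+CB pool 2 they lay below the detection level of its arrays. Rad51d, a recombination repair gene, was at 2.11 and 2.64 against 0.97 and 0.46, but its difference was -0.25 on arrays a and 3.91 on arrays b, where alone it passed the test (adjusted p = 0.0267, limma). The direction for Rad51d therefore came from 1 of the duplicate sets, and the gene was above background on only 1 TBI+CB array.

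Ahnak2, which encodes a very large scaffold protein, was above background on 3 TBI+MT arrays and on none of the 4 TBI+CB arrays. The TBI+MT pools were at 4.55 and 0.82. The second value lies below the detection level of TBI+CB pool 2 (1.96 and 1.94), so no minimum is given. Tmcc1, a membrane protein of the endoplasmic reticulum, was at 41.6 and 6.51 against 3.44 and 0.75 (3.36 ± 1.02), above background on only 2 TBI+CB arrays. Itsn2, an endocytic scaffold, was at 3.98 and 29.4 against 1.18 and 2.02 (2.81 ± 0.85). Second probes for Tmcc1 and Itsn2 went the other way, at -1.23 and -1.76. Prpsap1, a regulator of phosphoribosyl pyrophosphate synthesis, was at 88.1 and 103 against 36.1 and 42.1 (1.29 ± 0.41). Its difference was 0.39 on arrays a and 3.11 on arrays b.

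The 12 genes on the carbenoxolone side began with Pced1a, Mamdc4, Gsdme and Sdcbp2, and most were not above background in the metyrapone pools. Their adjusted p was 0.764 to 0.786. Ntrk2, the TrkB receptor for brain-derived neurotrophic factor, was at 15.2 and 5.55 in TBI+CB pools 1 and 2 and at 0.76 and 1.87 in TBI+MT pools 1 and 2 (log2 difference -2.94 ± 0.75). Both sets of arrays gave this direction, at -3.47 and -2.42, but the other 2 Ntrk2 probes stood at 0.57 and 0.29, so the gene had no single direction. Prss35, a serine protease family gene, was at 41.7 and 73.7 in TBI+CB and at 11.3 and 8.17 in TBI+MT (-2.53 ± 0.64). It was above background on all 8 arrays, and its second probe was at -0.10. It passed the test in 1 alternative, with all 32 arrays fitted and the pool as a random block (adjusted p = 0.0432, limma). Itpkb, a kinase of inositol trisphosphate, was at 4.02 and 2.92 against 0.93 and 0.61 (-2.19 ± 0.52), with -4.10 on arrays a and -0.27 on arrays b.

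For 9 of these 12 genes no TBI+MT array was above background. The difference is then a minimum, set against the detection level of those arrays. Rab3c, a GTPase of synaptic vesicles, was at least 4.52-fold higher in TBI+CB, with TBI+CB pools at 11.5 and 3.16 and TBI+MT pools at 1.55 and 0.36. Sdcbp2, a syntenin, was at least 3.49-fold higher, with TBI+CB pools at 4.75 and 4.53. Ntng1, the membrane-anchored netrin G1, was at least 3.01-fold higher, with TBI+CB pools at 5.60 and 2.80. These genes were above background on all 4 TBI+CB arrays. Kcnk6, a potassium channel, was at least 2.72-fold higher (TBI+CB pools 2.25 and 5.68). Gsdme, gasdermin E, which forms membrane pores once a caspase has cut it, was at least 2.41-fold higher (3.02 and 3.94). Fat3, a large cadherin, was at least 2.38-fold higher (3.66 and 2.68), and Pced1a, an esterase family gene, at least 2.30-fold higher (4.33 and 2.11). Fat3 and Pced1a were above background on 3 TBI+CB arrays each. Mamdc4 and Tubgcp2, the latter a gene of the gamma-tubulin complex, were above background on 2 TBI+CB arrays each and no minimum could be given.

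**Figure D2:**
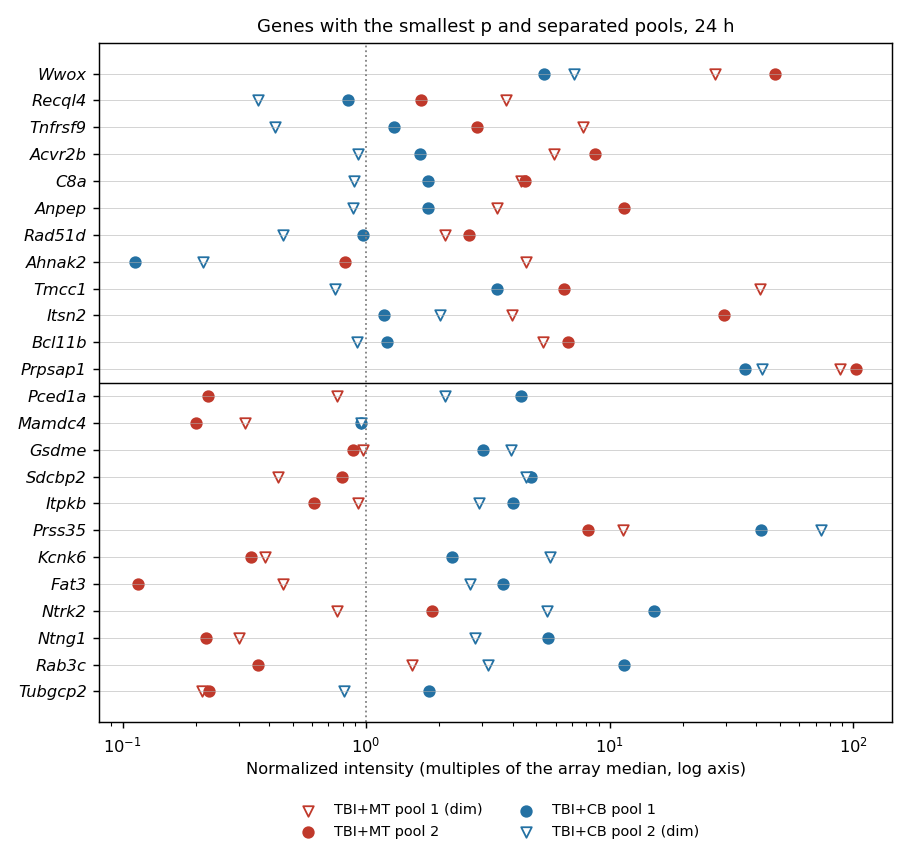
Normalized intensity (horizontal, log axis, multiples of the array median) of the 24 genes of smallest p whose pools did not overlap, 12 higher in TBI+MT above the line and 12 higher in TBI+CB below it; each symbol is 1 pool, triangles being the dim pools. On the carbenoxolone side most TBI+MT pools sit at or below 1, the array median, as with Ntng1 at 0.30 and 0.22.

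The genes of the drug targets had no common direction. Of those that passed, 1, Hsp90ab1, had separated pools, over 2-fold towards TBI+MT, beside 2.38% of all genes. Of 16 corticosteroid enzyme and receptor genes, 10 had a named probe and 7 passed the filter. Of these, 3 were higher in TBI+MT and 4 in TBI+CB, with a median log2 difference of -0.48 against -0.42 over all genes, and 0 had an unadjusted p under 0.05. Without 1 pool the median ran from -1.05 to 0.32. Hsd11b1 encodes the enzyme that the paper names as a target of both drugs. It was at 2.17 and 7.37 in TBI+MT pools 1 and 2 and at 16.6 and 5.67 in TBI+CB pools 1 and 2. The groups overlapped and the difference of -1.28 ± 0.88 had an adjusted p of 0.786. Hsd11b2, the inactivating enzyme, and Cyp11b1, the enzyme that metyrapone inhibits in the adrenal, were not above background on any of the 8 arrays.

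Nr3c2, the mineralocorticoid receptor, was at 7.70 and 84.4 in the TBI+MT pools and at 105 and 43.7 in the TBI+CB pools (log2 difference -1.41 ± 0.98). Without TBI+MT pool 1 the sign turned, to 0.32. Nr3c1, the glucocorticoid receptor, was at 0.95 and 0.86 against 0.89 and 0.48 and was above background on 1 array of each drug. Hsp90ab1, a chaperone of both receptors, was at 5.58 and 6.81 against 1.92 and 2.02 (1.65 ± 1.00), without overlap, although the difference on arrays a alone was -0.07. Cyp21a1, a steroid 21-hydroxylase, was at 143 and 18.7 against 7.52 and 22.8 (1.98 ± 0.91). Only the dim TBI+MT pool stood high. Fkbp4 and Fkbp5, immunophilins that bind the receptor complex, were at -0.54 ± 1.10 and -0.48 ± 0.61, and the pools overlapped in both.

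Gap junction genes showed no common direction. Of 20 connexin and pannexin genes, 13 had a probe and 7 passed, with 3 higher in TBI+MT, 4 higher in TBI+CB and a median log2 difference of 0.00 to 2 decimals (Panx3, at -0.001 ± 0.46, was the middle gene). Gja1, connexin 43 of astrocytes by its common name, was at 4.45 and 12.5 in the TBI+MT pools and at 31.7 and 4.90 in the TBI+CB pools, so the bright TBI+CB pool alone was high, and a second probe had the opposite sign. Panx2, a neuronal pannexin, was at 1.12 and 7.69 against 8.81 and 4.32. Here the dim TBI+MT pool alone was low. Gja4 and Gja5, connexins of vessel walls, differed by 0.86 ± 0.61 and 0.73 ± 0.59, Gjb1 by 0.27 ± 0.64 and Gjb6 by -0.56 ± 0.59. The pools overlapped in all 7 genes.

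Glucocorticoid-induced genes, read as a measure of hormone action, did not distinguish the drugs either. Of 22 with a probe, 16 passed, 4 were higher in TBI+MT and 12 in TBI+CB, with a median of -0.44 against -0.42 over all genes. No member was over 2-fold apart with separated pools, beside 2.38% of all genes towards TBI+MT and 6.28% towards TBI+CB. The median level of the list was 3.99 and 18.9 in TBI+MT pools 1 and 2 and 18.3 and 8.51 in TBI+CB pools 1 and 2. The bright pools were thus alike and the dim TBI+MT pool was the lowest. Tsc22d3, the glucocorticoid-induced leucine zipper, was at 0.81 and 2.62 against 5.07 and 2.00 (-1.13 ± 0.68). Dusp1, a MAP kinase phosphatase, was at 0.26 and 1.89 against 2.79 and 1.43 (-1.52 ± 0.91).

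**Figure D3:**
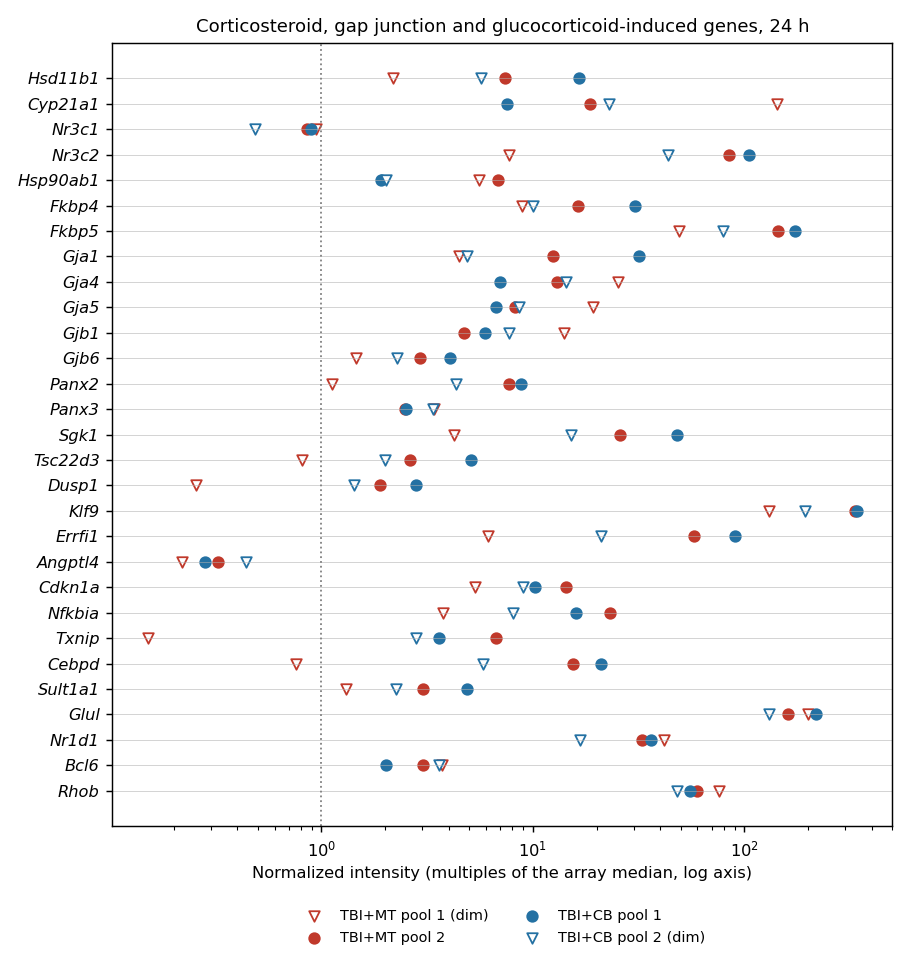
Normalized intensity (horizontal, log axis, multiples of the array median) of the corticosteroid, gap junction and glucocorticoid-induced genes that passed the filter; each symbol is 1 pool, triangles being the dim pools. The filled circles of the bright pools lie near each other in most rows, as for Klf9, whereas TBI+MT pool 1 is the lowest pool in many, as for Nr3c2 at 7.70.

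Of the 35 gene lists, 33 had a median below 0 and 13 had one below the median of all genes. The sign was negative in both the bright and the dim pair for 21 lists and positive in both for 1 list. Over all lists 614 genes passed, of which 15 were over 2-fold higher in TBI+MT with separated pools and 30 in TBI+CB, against 2.38 and 6.28% of all genes. The medians rested on single pools, since that of all probes turned to 0.11 without TBI+MT pool 1 and to 0.16 without TBI+CB pool 1.

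Most respiratory chain and proteasome genes had lower values in TBI+MT, as did 10934 of the 17609 probes tested, and none was called. With 1 probe per gene, as in the lists, the median over all genes was -0.42, with -0.46 in the bright pair and -0.26 in the dim pair. Among 56 respiratory chain and ATP synthase genes, 51 were lower in TBI+MT, with a median of -0.69 that was -0.73 in the bright pair and -0.69 in the dim pair. Without 1 pool the median ran from -1.57 to 0.03. Only 1 gene was over 2-fold apart with separated pools, towards TBI+CB, beside 6.28% of all genes. Ndufb5, of complex I, was at 4.81 and 33.9 against 75.8 and 24.4 (-1.75 ± 0.92), and Ndufb10 differed by -1.89 ± 0.82. Among 35 proteasome subunits, 27 were lower in TBI+MT and the median was -0.73, with -0.77 in the bright pair and -0.18 in the dim pair, and without 1 pool from -1.66 to 0.17. Psmd12 was at 4.94 and 21.0 against 65.5 and 14.8 (-1.61 ± 0.82), and Psmd9 differed by -1.25 ± 0.68. In Ndufb5 and Psmd12 the TBI+CB pools were also 3-fold or more apart from each other.

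Ribosomal protein genes had 29 of 38 lower in TBI+MT (median -0.59) and glycolysis genes 12 of 20 (-0.50). The leading ribosomal members went both ways. Rpsa was at 2.84 and 2.42 against 1.52 and 0.11 (2.66 ± 1.18), and Rps9 at 0.58 and 12.7 against 31.0 and 8.66 (-2.60 ± 1.30). Slc2a1, the glucose transporter GLUT1, differed by -1.02 ± 0.65. Pgam1 differed by -2.11 ± 1.18, with TBI+CB pool 2 missing from the fit. Heat shock genes had 10 of 12 lower in TBI+MT and a median of -0.42. Hsf1, the heat shock transcription factor, was above background on no TBI+MT array and Hspe1 differed by -2.22 ± 1.33.

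Among antioxidant genes the pools of each drug lay close together for Gclm. Gclm, the modifier subunit of the enzyme that limits glutathione synthesis, was at 5.49 and 5.04 in TBI+CB pools 1 and 2 and at 1.01 and 0.75 in TBI+MT pools 1 and 2, where no array was above background. It was at least 3.95-fold higher in TBI+CB (adjusted p = 0.786) and passed the replicate filter of the methods. Sod3, extracellular superoxide dismutase, went the other way at 2.16 and 1.27 against 0.71 and 0.49 (1.48 ± 0.70), with 0.25 on arrays a and 2.70 on arrays b. In all, 16 of 22 antioxidant genes were lower in TBI+MT (median -0.68). The median was -0.60 in the bright and -0.73 in the dim pair, beside -0.46 and -0.26 over all genes, and it ran from -1.37 to 0.23 without 1 pool.

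Synaptic vesicle genes held a member of the same kind on the metyrapone side. Syn1, synapsin I, which tethers synaptic vesicles, was at 5.19 and 5.05 in the TBI+MT pools and at 1.98 and 2.08 in the TBI+CB pools (log2 difference 1.34 ± 0.43, adjusted p = 0.786). This probe was above background on only 2 TBI+CB arrays. A second Syn1 probe was at 1.60, in the same direction. Cplx2, a complexin that binds the fusion machinery, was at 122 and 80.5 against 47.5 and 13.7 (1.96 ± 0.79) and was above background on all 8 arrays. Over the list 11 of 23 genes were higher in TBI+MT, with a median of -0.07.

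Promoters are shown for Syn1 and Gclm because they were, of the list members with separated pools, those of smallest p on each side with a sequence in the table used; Ntrk2 had no entry. They run from 250 bases before to 50 bases after the transcription start, on the plus strand of rat build GRCr8, from RefSeq. Capitals mark matches, on either strand, to the cyclic AMP response element TGACGTCA and to the core of the antioxidant response element TGACNNNGC. The Syn1 promoter (chrX:3725495-3725794) held 1 match to TGACGTCA, beginning 190 bases before the start, and the Gclm promoter (chr2:213031885-213032184) 1 match to TGACNNNGC, on the opposite strand, beginning 172 bases before the start. Of 33469 promoters of the same length, 1.83% held the former and 12.06% the latter.
Syn1: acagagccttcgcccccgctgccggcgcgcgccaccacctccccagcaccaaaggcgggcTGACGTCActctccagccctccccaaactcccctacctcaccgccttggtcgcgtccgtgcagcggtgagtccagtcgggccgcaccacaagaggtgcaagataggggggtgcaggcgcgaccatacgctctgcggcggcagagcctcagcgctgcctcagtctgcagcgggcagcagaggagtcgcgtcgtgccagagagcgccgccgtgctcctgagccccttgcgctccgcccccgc
Gclm: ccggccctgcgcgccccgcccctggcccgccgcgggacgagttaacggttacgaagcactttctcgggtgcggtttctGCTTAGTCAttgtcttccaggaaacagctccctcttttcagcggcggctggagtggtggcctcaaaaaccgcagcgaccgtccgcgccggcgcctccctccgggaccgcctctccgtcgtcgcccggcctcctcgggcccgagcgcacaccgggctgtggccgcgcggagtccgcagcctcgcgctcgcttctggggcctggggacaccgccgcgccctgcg
A match is a description of the letters only, and binding was not measured.

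Of 23 immediate early genes that passed the filter, 9 had higher values in TBI+MT and 14 in TBI+CB, with a median of -0.18 and 0 called. Over 2-fold apart with separated pools were 2 towards TBI+MT and 3 towards TBI+CB, beside 2.38 and 6.28% of all genes. Egr4 was at 4.22 and 7.95 in the TBI+MT pools and at 21.5 and 10.8 in the TBI+CB pools (-1.40 ± 0.63). Klf4 was at 8.62 and 4.69 against 3.31 and 0.55 (2.24 ± 0.89). Both are transcription factors and in both the pools were separated, but the median of the list over the probes above background on all 8 arrays was -1.05.

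Interferon and antigen presentation genes had 4 of 14 members over 2-fold higher in TBI+CB with separated pools, beside 6.28% of all genes. Mx1, an interferon-induced GTPase, was at 0.46 and 2.47 in TBI+MT pools 1 and 2 and at 6.00 and 3.36 in TBI+CB pools 1 and 2 (-2.08 ± 0.88). B2m, the light chain of MHC class I, was at 0.50 and 1.40 against 2.37 and 3.15 (-1.70 ± 1.00). Isg15, at -1.13 ± 0.86, and Tap1, at least 1.36-fold higher in TBI+CB, were the other 2 and were named after their values had been seen. The remaining members offset them, and the median of the list was -0.17, above that of all genes.

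Inflammatory genes were not separated as lists. Of 15 cytokine and chemokine genes, 7 were higher in TBI+MT and the median was -0.01. Il1a was at 4.86 and 3.46 against 2.90 and 1.48 (0.99 ± 0.52), and Csf1, a growth factor of macrophages, at 0.24 and 7.11 against 10.3 and 5.06 (-2.46 ± 1.18), with TBI+MT pool 1 alone low. Acute phase, complement and protease genes were lower in TBI+MT for 11 of 14, with a median of -0.17. Timp2, a metalloproteinase inhibitor, was at 3.29 and 4.88 against 9.30 and 6.88 (-1.0 ± 0.58), and A2m differed by -1.45 ± 0.96.

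Cell death genes had their leading members on both sides. Hrk, a proapoptotic BH3-only gene, was at 10.3 and 6.00 in the TBI+MT pools and at 0.91 and 4.44 in the TBI+CB pools (1.97 ± 0.69), but it could not be compared on arrays a alone. Bok, a BCL2 relative, was at 0.44 and 3.18 against 9.19 and 2.83 (-2.11 ± 0.85). Of 27 apoptosis genes, 12 were higher in TBI+MT (median -0.32), and 3 were separated by over 2-fold towards TBI+MT and 0 towards TBI+CB, beside 2.38 and 6.28% of all genes. Among 17 TNF receptor and death domain genes the median was -0.15, with Nfkb2 at -1.19 ± 0.63 and Daxx at -0.87 ± 0.66.

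Survival signaling was likewise divided. Igf1r, the IGF-1 receptor, was at 103 and 60.1 in the TBI+MT pools and at 35.0 and 25 in the TBI+CB pools (1.41 ± 0.67). This probe had values in no other group at either time used here, and a second Igf1r probe was at -0.33. Pik3cd, a PI3 kinase subunit, was at -0.99 ± 0.58. Of 21 PI3K, AKT and mTOR genes, 10 were higher in TBI+MT (median -0.10). Fgfr1, a fibroblast growth factor receptor, was at 3.26 and 4.31 against 2.19 and 2.04 (0.83 ± 0.42), and the 18 neurotrophic genes divided evenly, 9 to 9, with a median of -0.03.

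Cyclic AMP, protein kinase A and CREB genes were lower in TBI+MT for 15 of 21 (median -0.60, with -0.31 in the bright and -0.94 in the dim pair). Adcy2, an adenylyl cyclase, was at 6.65 and 19.7 against 47.8 and 22.9 (-1.53 ± 0.75), and Atf4 at 1.64 and 14.7 against 32.4 and 8.58 (-1.76 ± 0.98). Only the first had separated pools. Calcineurin, NFAT and calmodulin genes had 10 of 18 lower in TBI+MT (median -0.10). Rcan1, a calcineurin inhibitor, and Camkk2, a calmodulin-dependent kinase kinase, differed by -1.40 ± 0.68 and -1.89 ± 0.87. Sc5d, of cholesterol synthesis, was at 0.88 and 2.16 against 4.90 and 5.03 (-1.85 ± 0.64), while Srebf2, the regulator of that pathway, was at 44.6 and 26.9 against 22.5 and 18.4 (0.77 ± 0.47), and 12 of 19 genes of the pathway were lower in TBI+MT (median -0.37).

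Neuropeptide genes were lower in TBI+MT for 16 of 20 (median -0.65, from -1.27 to 0.24 without 1 pool). Tac1, which encodes substance P, was at 1.06 and 3.55 in TBI+MT pools 1 and 2 and at 18.8 and 7.98 in TBI+CB pools 1 and 2 (-2.66 ± 0.88). The pools did not overlap, and arrays a and b gave -2.73 and -2.59. Vip was at 2.15 and 3.05 against 5.02 and 7.52 (-1.26 ± 0.78), and Trh, thyrotropin-releasing hormone, differed by 0.89 ± 0.54.

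Glutamate receptor genes had 12 of 21 higher in TBI+MT (median 0.05), led by Gria4 at 0.68 ± 0.48 and Grm3 at 0.93 ± 0.66. Inhibitory synapse genes divided 5 to 5, with Gphn (gephyrin) at -1.0 ± 0.62 and Gabbr1, a GABA-B receptor subunit, at 0.77 ± 0.49. For Gria4, Grm3, Gphn and Gabbr1 a further probe had the other sign. Potassium channel genes divided 15 to 15, with Kcnab1 at -2.39 ± 0.96 and Kcnk2 at -1.43 ± 0.80. Of 21 sodium and calcium channel genes, 3 were separated by over 2-fold towards TBI+CB and 1 towards TBI+MT, beside 6.28 and 2.38% of all genes. Cacna1c, an L-type calcium channel, was at 1.53 and 0.91 against 0.75 and 0.23 (1.5 ± 0.57). It was above background on only 1 TBI+MT array and 2 TBI+CB arrays, so its separation rests largely on values below detection. Scn3a was above background on no TBI+MT array and on 2 TBI+CB arrays, with TBI+CB pools at 4.17 and 1.49. Axon guidance genes divided 14 to 14, with Slit1 at 0.77 ± 0.47 and Plxnc1 at -1.30 ± 0.84.

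**Figure D4:**
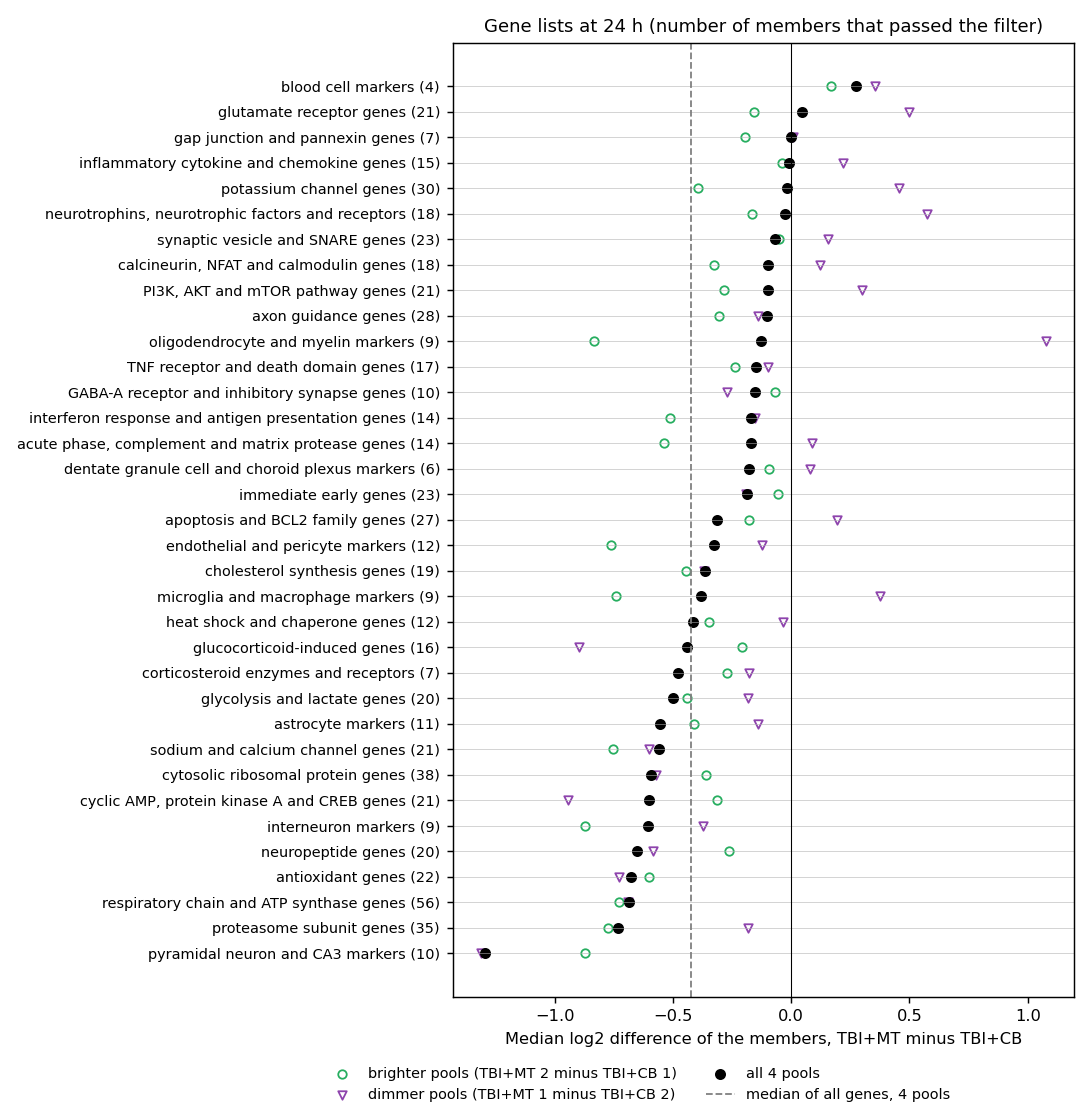
Median log2 difference, TBI+MT minus TBI+CB (horizontal axis), of each gene list, with the number of members that passed the filter in parentheses; filled circles use all 4 pools, open circles the bright pair, triangles the dim pair, and the dashed line is the median of all genes (-0.42). Pyramidal neuron markers lie farthest to the left, at -1.29, and the oligodendrocyte list has its pairs on opposite sides, at -0.84 and 1.08.

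The median level of the pyramidal neuron markers was higher in the bright pools than in the dim ones, which did not hold for every cell marker. In a pool of captured cells, fewer cells of a type and less RNA per cell cannot be told apart. Pyramidal neuron and CA3 markers had the lowest median of the 35 lists, at -1.29, with 7 of 10 lower in TBI+MT, and the median ran from -2.41 to 0.05 without 1 pool. Their median level was 6.78 and 29.4 in TBI+MT pools 1 and 2 and 59.9 and 13.0 in TBI+CB pools 1 and 2, and their summed level was 220 and 658 against 1060 and 367. Nptx1, neuronal pentraxin, was at 36.9 and 227 against 388 and 182 (-1.54 ± 0.81). Slc17a7, the vesicular glutamate transporter of excitatory neurons, was above background on all 8 arrays, at 20.0 and 17.0 against 19.0 and 5.60 (0.84 ± 0.55). Transcripts of excitatory neurons were thus present in each pool, but Slc17a7 does not tell CA3 cells from other excitatory neurons. TBI+MT pool 1 had the lowest summed level of the listed markers. The part of these markers in the gene differences above was not tested.

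Markers of other cells were present too. Gad1, the enzyme of GABA synthesis, was above background on all 8 arrays, at 97.2 and 59.4 against 85.2 and 51.8 (0.19 ± 0.49), and 7 of 9 interneuron markers were lower in TBI+MT (median -0.61), with Vip, given above, and Npy at -0.82 ± 0.63. Gfap, of astrocytes, was at 43.2 and 21.3 against 27.3 and 30.8 (0.07 ± 0.55), and the 11 astrocyte markers summed to 331 and 378 against 576 and 280, with Aldoc and Aldh1l1 at -0.99 ± 0.67 and -0.81 ± 0.55. Mbp, of myelin, was not above background on any of the 8 arrays. The 9 oligodendrocyte markers that passed summed to 158 and 140 against 223 and 96.7, with Cspg4 at -1.33 ± 0.81 and Mal at -0.85 ± 0.70.

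Aif1 and Laptm5, of microglia and macrophages, were the members of smallest p in their list. Aif1 was at 1.49 and 4.77 in TBI+MT pools 1 and 2 and at 7.97 and 7.55 in TBI+CB pools 1 and 2 (-1.54 ± 0.66, adjusted p = 0.786). Laptm5 was at 8.10 and 6.39 against 11.8 and 28.0 (-1.34 ± 0.57). The pools were separated in both, but the 9 microglial markers that passed summed to 177 and 118 against 161 and 182, and P2ry12, Trem2 and Ptprc were not above background on any array.

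Of endothelial and pericyte markers, Cldn5, of the tight junctions of brain vessels, was at 5.51 and 10.9 against 21.7 and 11.5 (-1.03 ± 0.55). Mfsd2a, a lipid transporter of the blood-brain barrier, was at 0.19 and 0.42 against 1.26 and 1.00 and was above background on 2 TBI+CB arrays. The 12 endothelial and pericyte markers summed to 60.7 and 64.8 against 111 and 58.3. The 4 blood cell markers summed to 6.19 and 9.32 against 8.54 and 7.36, with Cd3e at 0.86 ± 0.55 and Alas2 at -1.21 ± 1.15. Prox1, of dentate granule cells, was at 40.9 in TBI+MT pool 1 and at 5.54 in pool 2, against 5.51 and 6.47 in TBI+CB (1.33 ± 0.88). Pools without drug at 24 h were also high for Prox1, at 27.8 and 20.9 in TBI and at 10.7 and 36.2 in SHAM. Of the 4 drug pools, TBI+MT pool 1 alone was high. Prox1 made up most of the sum of the 6 dentate and choroid plexus markers in that pool (52.7, against 13.2, 17.1 and 21.4 in the others). The median level of the list was lowest there, at 1.06 and 1.38 in TBI+MT pools 1 and 2 and 1.55 and 2.39 in TBI+CB pools 1 and 2. C1ql2 was above background on no TBI+MT array and on 2 TBI+CB arrays.

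**Figure D5:**
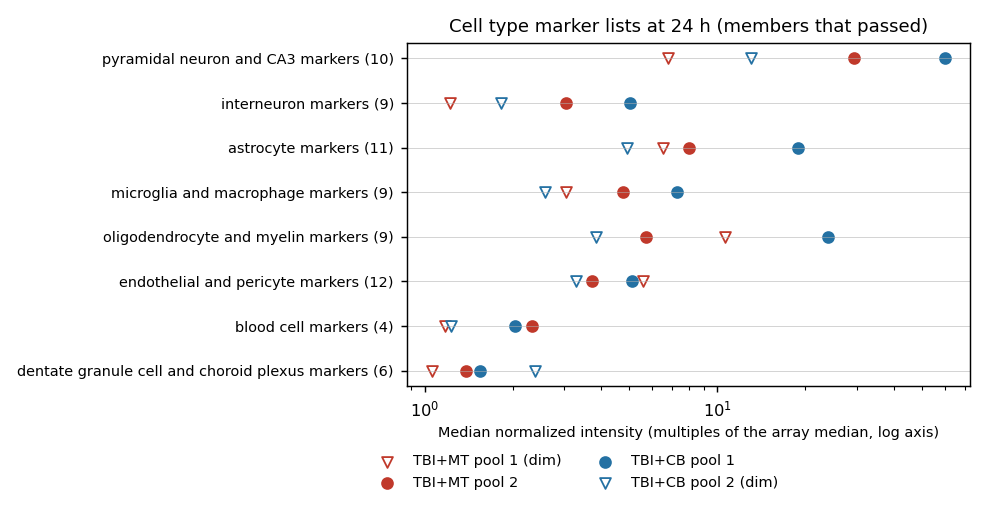
Median normalized intensity (horizontal, log axis, multiples of the array median) of the cell type marker lists in the 4 pools, with the number of members that passed in parentheses; triangles are the dim pools. Pyramidal neuron markers lie lowest in TBI+MT pool 1, at 6.78, and highest in TBI+CB pool 1, at 59.9.

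The same contrast was measured at 4 h on other rats and in another run of slide numbers. The difference between the 24 h and the 4 h contrast was called for 0 of 17593 probes (0.0%), with a smallest adjusted p of 0.998 and 439 probes at an unadjusted p under 0.05. Across 17593 probes the contrasts at the 2 times correlated at r = 0.23, a description across probes whose pools share no sample. Of the 12 genes named on the metyrapone side, 10 had the same sign at 4 h, and of the 12 on the carbenoxolone side 8 had, beside 57.7% of all probes. That share covers both directions, and the median over all probes at 4 h was -0.20. The counts include differences near 0 at 4 h, such as Prpsap1 at 0.009 and Prss35 at -0.056.

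Bcl11b was at 5.66 and 6.26 in the TBI+MT pools at 4 h and at 0.10 and 0.44 in the TBI+CB pools, the same side as at 24 h. Acvr2b was at 5.47 and 7.10 against 1.22 and 2.87, also the same side. Mx1 was at 0.42 and 1.04 against 2.31 and 4.11 at 4 h, Mfsd2a at 0.34 and 0.73 against 2.22 and 2.11, and Laptm5 at 2.06 and 3.20 against 8.20 and 6.62. In these 5 genes, chosen after their values were seen, the pools did not overlap at either time and kept the same order. In contrast, Prpsap1 was at 75.8 and 78.3 against 77.0 and 76.1 at 4 h, with the 4 pools nearly equal, and Gclm and Syn1 differed by -0.29 and 0.27 at 4 h, less than at 24 h. The tests of the difference between times were not passed by any of these genes.

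The injured and sham rats given no drug at 24 h give the level around which the drugs can be placed, although their arrays came from another run of slide numbers and no test is drawn from them here. Prpsap1 was at 81.6 and 108 in TBI pools and at 89.8 and 106 in SHAM pools, near the TBI+MT pools (88.1 and 103) and above the TBI+CB pools. Ntrk2 was at 5.06 and 8.92 in TBI and at 9.43 and 5.01 in SHAM, within the range of the TBI+CB pools (15.2 and 5.55) or just below it, and above the TBI+MT pools. Gsdme was at 1.44 and 1.71 in TBI and at 1.76 and 2.55 in SHAM, between the drugs. Prss35 was at 10.9 and 10.9 in TBI, near TBI+MT, and at 51.2 and 11.6 in SHAM, so its sham pools themselves spanned the drug difference. Wwox was at 17.9 and 12.2 in TBI and at 7.21 and 18.8 in SHAM, below the TBI+MT pools and above the TBI+CB pools.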

How the data were processed

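RNA of laser-captured CA3 neurons was hybridized by the authors to CodeLink rat arrays, with duplicate arrays per pool. The deposited scanner files give 1 spot intensity per probe, below 0 for some spots, and how background was treated is not given in the sources used here. Each was divided by its array's median, floored at 0.1 and taken to log2. The deposited signal table, which the authors processed and which equals these values times 1.0057 to 1.0293 per array, served as an alternative. Spots marked irregular or masked were left out. A probe was kept, as 17635 of 33849 were, if some group had it above background on its whole set of 4 arrays. Of all probes, 16878 were named by a single symbol (16834 of them through the RefSeq table) and 16971 were left unnamed, 182 of these because several genes were listed. Duplicate arrays (consensus correlation 0.903) were averaged, giving n = 2 pools per group.

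All 8 groups entered a single model in limma (version 3.58.1, R version 4.3.3, with data.table version 1.17.8), with 8 residual and 3.88 prior degrees of freedom, Benjamini-Hochberg adjustment over all probes tested and a threshold of 0.05. For 64 probes a drug pool at 24 h had no value and was absent from the fit. The labels do not tie the rats of a pool to separate surgeries. The p-values measure only the spread between pools, shared over all 8 groups. Array weights were lowest for TBI+MT and TBI+CB at 24 h (0.33 and 0.40, against 3.01 for TBI at 24 h). The shared spread may therefore be too small for the drug pools. With array weights, 98 probes had an unadjusted p under 0.05 (limma), against 893 without. A gene with several probes is given by the probe of highest mean. Where a group had no array above background, the difference is given as a minimum. It was computed against the higher, on each array, of the lowest signal above background and the probe's own value. If the other group was itself only partly above background, its values below detection entered as they were, and the minimum is not strict. Where only some arrays of a group were above background, the difference is given as computed and includes values below detection.

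Genes named are the 12 of smallest p on each side whose pools did not overlap, without predicted genes, 2 members of smallest p in each of the 35 lists, all drug target genes that passed, and defining cell markers. Members and lists were chosen with earlier results of these data known. The model was tested on simulated data. The number of pools, 2 per group, limits the precision. Slide runs were read from slide numbers, which the labels do not call batches.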

Additional observations from a re-analysis of the deposited data

How the results depend on the processing

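No probe was called under most of the 25 alternatives. The exceptions were 3 called on array b alone (among them Rad51d, 3.91, adjusted p = 0.0267 by limma), 4 with the dim pools alone, 1 on all 32 arrays with the pool as a random block (Prss35, -2.53, adjusted p = 0.0432), and 1 without TBI+MT replicate 2 or TBI+CB replicate 1 (0 to 1 over the single pools left out). The 24 h against 4 h difference gave 0 calls wherever it could be fitted. Probes at an unadjusted p under 0.05 numbered 893, and 1491 after quantile normalization, 1951 with no filter, 531 and 163 when probes had to be above background on all 4 arrays of either drug or on all 8, 2642 in the dim pools alone, 231 with the drug groups fitted alone, 98 with array weights and 813 to 4514 without 1 pool. Separated probes over 2-fold numbered 667 towards TBI+MT and 1191 towards TBI+CB. They were 3043 and 1854 with no filter, 298 and 592 with the filter on either drug, 95 and 166 with that on all 8 arrays, 1277 and 3960 in the bright pair and 3117 and 4898 in the dim pair, where a single pair is easier to separate, and 1002 to 2799 and 1102 to 7471 without 1 pool. The median over all probes ran from -0.88 (without TBI+CB replicate 2) to 0.16 (without TBI+CB replicate 1). Of the probes that met the replicate filter of the methods, 102 were over 2-fold apart, and 230 when it was applied to pool means. Deviations of same-numbered pools from their group means correlated at -0.35. Pool 1 was dim for TBI+MT and bright for TBI+CB, so this cannot show whether the replicate numbers pair the pools. A fit with the replicate block left 943 probes at an unadjusted p under 0.05 (limma) and 0 called. Normexp correction was not run, since the files used hold a single intensity column.

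Many alternatives could not turn a sign. Changes to the variance model, the groups fitted or the filter left the difference itself unchanged. Genes picked for separated pools could not turn when 1 pool was left out or a single pair was taken. With such values counted, 2478 of 2517 alternative values of the 105 named genes kept their direction. Those that turned were Panx3 (0.23 after quantile normalization, 0.082 on array b alone, 0.006 in the dim pair), Rad51d (-0.25), Hsp90ab1 (-0.07) and Gfap (-0.11) on array a alone, Nr3c1 (-0.053), Gjb1 (-0.33), Grm3 (-0.045), Gfap (-0.35), Gad1 (-0.52) and Slc17a7 (-0.16) in the bright pair, Cspg4 (0.013) in the dim pair, Fkbp4 (0.065), Gjb1 (-0.067) and Gfap (-0.15) with the share above background as a covariate, and Gja1 (0.17), Gria4 (-0.20) and Gabbr1 (-0.34) with all probes of a gene averaged. Without 1 pool, the log2 differences that turned sign ran over these ranges: Nr3c2 -3.14 to 0.32, Fkbp5 -1.25 to 0.30, Gja1 -2.08 to 0.61, Gjb1 -0.52 to 1.05, Panx2 -2.46 to 0.32, Hspe1 -4.45 to 0.017, Daxx -1.76 to 0.022, Prox1 -0.11 to 2.78, Gfap -0.44 to 0.58, Gad1 -0.17 to 0.55, Panx3 -0.22 to 0.22, Cspg4 -2.78 to 0.13, Fkbp4 -1.34 to 0.26, Mal -1.81 to 0.12 and Slc17a7 -0.041 to 1.72. Of 594 alternative list medians, 570 lay within the spread between pools. That spread was wide, so a median could change sign and still lie within it. The respiratory chain median, which ran from -1.57 to 0.03 without 1 pool, was counted as within it. The share of probes above background was lowest in the dim pools, which limits what they can show.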

Other observations

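Probes without a gene name here were among those of smallest p, and 3 on each side with non-overlapping pools are given by their identifiers. GE1168970 was at 12.5 and 11 in TBI+CB pools 1 and 2 and at 0.93 and 0.72 in TBI+MT pools 1 and 2, where it was above background on no array, so that it was at least 8.92-fold higher in TBI+CB (adjusted p = 0.764, limma with Benjamini-Hochberg adjustment). TBI pools at 24 h were at 4.77 and 5.21 and SHAM pools at 4.89 and 3.08, between the drugs. At 4 h it was at 5.67 and 5.43 in TBI+MT and at 4.11 and 9.16 in TBI+CB, with overlap.

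GE1298902 was at 3.33 and 2.17 in TBI+MT and at 0.52 and 0.45 in TBI+CB (log2 difference 2.47 ± 0.51 SE). It was at 3.56 and 2.40 against 0.69 and 0.69 at 4 h, in the same order. GE1170545 and GE13861 were at least 1.98-fold and 2.38-fold higher in TBI+CB, where they were above background on 4 and 3 arrays. GE1153632 was at 2.25 and 3.33 in TBI+MT and at 0.145 and 0.308 in TBI+CB, and GE1124715 at 1.44 and 9.12 against 0.14 and 0.1. These last probes were above background on 1 and 2 TBI+MT arrays and on no TBI+CB array, so no minimum is given.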
